A study of Mus musculus with 9 samples.

Results

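The lysosome and autophagy genes described here are 40 named genes of the 31405 in the linear RNA tables. They were taken by symbol from a list drawn up with earlier results of these data known. All 40 were in the tables and all 40 passed the filter on low values, Ctsk only through the C2S libraries. They fall into 17 hydrolases and lumenal cofactors, 9 genes of the lysosomal membrane, 4 genes of the proton pump and 10 genes of autophagy. The cells were BMSCs, mouse mesenchymal stem cells of the bone marrow from a commercial stock, and their RNA was sequenced. All cells were cultured for 7 days, in 3 groups of 3 libraries each. The PM group grew in proliferation medium, a serum-containing DMEM. The OM group grew in osteogenic medium with 100 nM dexamethasone (a synthetic glucocorticoid), 0.2 mM ascorbic acid and 10 mM beta-glycerophosphate. The C2S group grew in the same osteogenic medium to which dicalcium silicate, a ceramic used in bone repair materials, was added at a dose that the labels do not tie to these samples. Comparing OM with PM asks what the osteogenic medium did to the cells, and comparing C2S with OM asks what the silicate added to it. Whether the libraries of a group are separate cultures is not stated in the labels. The p-values therefore reflect nothing but the variation among these 9 samples, and that variation may be technical.

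Lysosomes are acidic organelles in which hydrolases break down proteins, glycans and lipids delivered by endocytosis, secretion routes and autophagy. The vacuolar proton pump (V-ATPase) acidifies their lumen, membrane glycoproteins such as LAMP1 and LAMP2 line them, and autophagosomes marked with lipid-linked LC3 and GABARAP proteins fuse with them. The transcription factors TFEB, TFE3 and MITF bind CLEAR elements, palindromes built around an E-box, in front of many of these genes. In bone, acid secretion and lysosomal proteases are best known from the osteoclast, and autophagy is known in osteoblasts as well.

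The linear values rest on 29582094 to 38764540 reads per library. The values are FPKM, which divide a gene's fragments by its transcript length and by the depth of the library. The length that fits these values is that of a gene's longest annotated transcript. Levels set beside each other between genes depend on that length, whereas comparisons of a gene between groups do not. Among the members, Ctsk had the fewest reads in any library (36) and Cd68 the next fewest (66). Between 28.8% and 36.1% of each library's FPKM belonged to Rn7sk, a small nuclear RNA, and a scaling without it is named beside each member whose OM against PM or C2S against OM call it changed. The 8 stromal markers were present in every library and summed to 854 to 962 FPKM in PM, against 954 to 1141 in OM and 1093 to 1184 in C2S, mostly Ly6a, while Col1a1 averaged 98.6, 29.9 and 25.8 FPKM and Nt5e 2.53, 0.68 and 0.486. The 4 adipocyte markers summed to 2.43 to 2.72 FPKM in PM, against 23.3 to 26.5 in OM and 31.3 to 33.9 in C2S. Of these, Fabp4 averaged 0.432, 15.7 and 17.4 FPKM and Pparg 2.13, 8.86 and 15.1, while Plin1 and Cidec did not exceed 0.03. The part of these markers' cells in the members' changes was not tested. Of the 9 macrophage markers in the tables, 7 stayed below 1 FPKM in every library, and C1qa was listed at 0 throughout. The osteoblast genes Sp7, Ibsp, Bglap and Dmp1 were below 0.15 FPKM in every library, whereas Alpl stood at 7.02 ± 0.239 FPKM in PM, against 9.82 ± 0.738 in OM and 15.01 ± 0.746 in C2S (mean ± SD, n = 3, as for every group value below). Runx2, the remaining osteoblast marker, stood at 4.45 ± 0.898 FPKM in PM, against 4.57 ± 0.505 in OM and 5.89 ± 0.519 in C2S. It was called higher in C2S than in PM (adjusted p = 0.033 by limma) and not called in the other comparisons. In these bulk libraries, fewer cells of a type and less RNA per cell cannot be told apart.

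Promoter windows from RefSeq (GRCm38.p6, the assembly behind mm10), reaching from 250 bases before to 50 bases after the start of a gene, were matched by symbol for 35 of the 40 members. Ctsb, Npc1, Atp6v1h, Map1lc3a and Becn1 were not matched. The CLEAR core TCACGTGA, which contains the E-box CACGTG, was found in the windows of 6 of these 35 genes (17.1%), against 1.12% of all 27025 genes with a window. CLEAR elements are known in front of many lysosomal genes, so an excess in this list was set by the choice of genes and motif. It was not tested. The E-box, inside the core or without it, stood in 9 of 35 (25.7%), against 8.09% of all genes. Ctsl, Glb1 and Lamp1 held it without the core. A search for the forkhead letters GTAAACA and for an exact form of the glucocorticoid response element, on both strands, found neither in any member window. Of all genes, 4.05% and 0.0111% held them, so absence was to be seen in most windows. The 6 stretches with a CLEAR core are shown because they are the letters that MiT/TFE factors are known to read, with the core in capitals and the strand of the gene from 5′ to 3′. They lie at chr2:164833749-164833795, plus strand (Ctsa), chr7:142387903-142387942, minus strand (Ctsd), chrX:134601182-134601244, minus strand (Gla), chr8:3500457-3500496, plus strand (Mcoln1), chr8:105566045-105566084, minus strand (Atp6v0d1) and chr16:44139368-44139407, minus strand (Atp6v1a). Gla and Ctsa each hold the core 2 times. A match is a description of these letters and shows no binding.
Ctsa: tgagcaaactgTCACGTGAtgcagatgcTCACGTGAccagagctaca
Ctsd: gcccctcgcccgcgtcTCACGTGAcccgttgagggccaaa
Gla: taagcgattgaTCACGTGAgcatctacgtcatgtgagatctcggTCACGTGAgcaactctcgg
Mcoln1: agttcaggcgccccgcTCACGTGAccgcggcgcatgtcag
Atp6v0d1: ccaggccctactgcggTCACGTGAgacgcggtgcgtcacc
Atp6v1a: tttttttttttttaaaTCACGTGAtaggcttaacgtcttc

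The calls of the genes with a CLEAR core went in different directions, and in OM against PM this depended on the scaling. In OM against PM, Ctsa and Mcoln1 rose, Atp6v0d1 and Atp6v1a fell, and Ctsd and Gla were not called. With the summed FPKM set equal after leaving out Rn7sk, the Ctsa and Mcoln1 calls ended (adjusted p = 0.794 and 0.168 by limma). Gla was then called lower (adjusted p = 0.0436 by limma), Atp6v0d1 and Atp6v1a stayed lower, and none of these genes was called higher. In C2S against OM, Gla rose, Ctsa fell and the other 4 were not called. The windows of the 3 members that rose most in OM, Man2b1 (chr8:85083019-85083318, plus strand), Gabarapl1 (chr6:129532942-129533241, plus strand) and Gpnmb (chr6:49036268-49036567, plus strand), held none of the 4 motifs in the exact letters searched. Variants of these letters were not searched for, so such sites may still be present. The 3 windows are printed whole, with no capitals.
Man2b1: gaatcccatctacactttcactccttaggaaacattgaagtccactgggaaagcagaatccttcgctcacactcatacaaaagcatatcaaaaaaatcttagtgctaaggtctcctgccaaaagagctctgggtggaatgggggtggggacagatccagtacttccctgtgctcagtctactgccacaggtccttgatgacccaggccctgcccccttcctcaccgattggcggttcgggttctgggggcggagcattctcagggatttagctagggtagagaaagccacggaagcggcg
Gabarapl1: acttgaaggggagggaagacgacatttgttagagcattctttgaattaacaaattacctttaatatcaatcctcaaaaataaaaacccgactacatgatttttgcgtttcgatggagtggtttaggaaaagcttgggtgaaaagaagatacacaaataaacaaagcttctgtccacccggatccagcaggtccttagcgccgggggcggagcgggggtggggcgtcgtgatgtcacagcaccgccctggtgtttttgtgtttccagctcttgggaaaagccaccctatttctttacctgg
Gpnmb: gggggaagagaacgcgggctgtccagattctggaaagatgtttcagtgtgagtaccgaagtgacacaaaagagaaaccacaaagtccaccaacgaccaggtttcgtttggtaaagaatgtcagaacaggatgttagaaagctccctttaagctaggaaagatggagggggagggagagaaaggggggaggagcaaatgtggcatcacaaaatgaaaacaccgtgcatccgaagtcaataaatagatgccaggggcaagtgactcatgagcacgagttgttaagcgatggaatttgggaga

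In OM against PM, the set as a whole did not move one way, and 4 genes carried the large differences. Man2b1, Gabarapl1 and Gpnmb rose to 3.01, 2.24 and 2.17 times their PM level, and Map1lc3a fell to 0.565 of it. By limma on log2(FPKM + 1), fitted to all 13049 genes that reached 1 FPKM in at least 3 libraries, 15 members rose and 9 fell at an adjusted p under 0.05, and 16 were not called. The called members made up 60% of the set, beside 54.8% of all genes tested (27.1% higher and 27.7% lower), so the share called was near the background. The median log2 fold change was 0.055 over the members and 0.0028 over all genes. A change of at least 1.5-fold on this scale was seen in 10% of the members and 15.8% of all genes tested. The split of the calls depended on the scaling. With the summed FPKM set equal after leaving out Rn7sk, 6 members rose and 16 fell, and all genes turned to 2551 higher and 4373 lower, with a median log2 fold change of -0.080. Of the 15 rises, 9 then lost their call (Ctsa, Glb1, Gusb, Npc2, Mcoln1, Scarb2, Atp6v1h, Sqstm1 and Wipi1), and 7 members were called lower in addition (Gla, Neu1, Lipa, Psap, Lamp1, Cd63 and Tfeb). The plot of fold changes gives all 40 members in both comparisons.

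**Figure D1:**
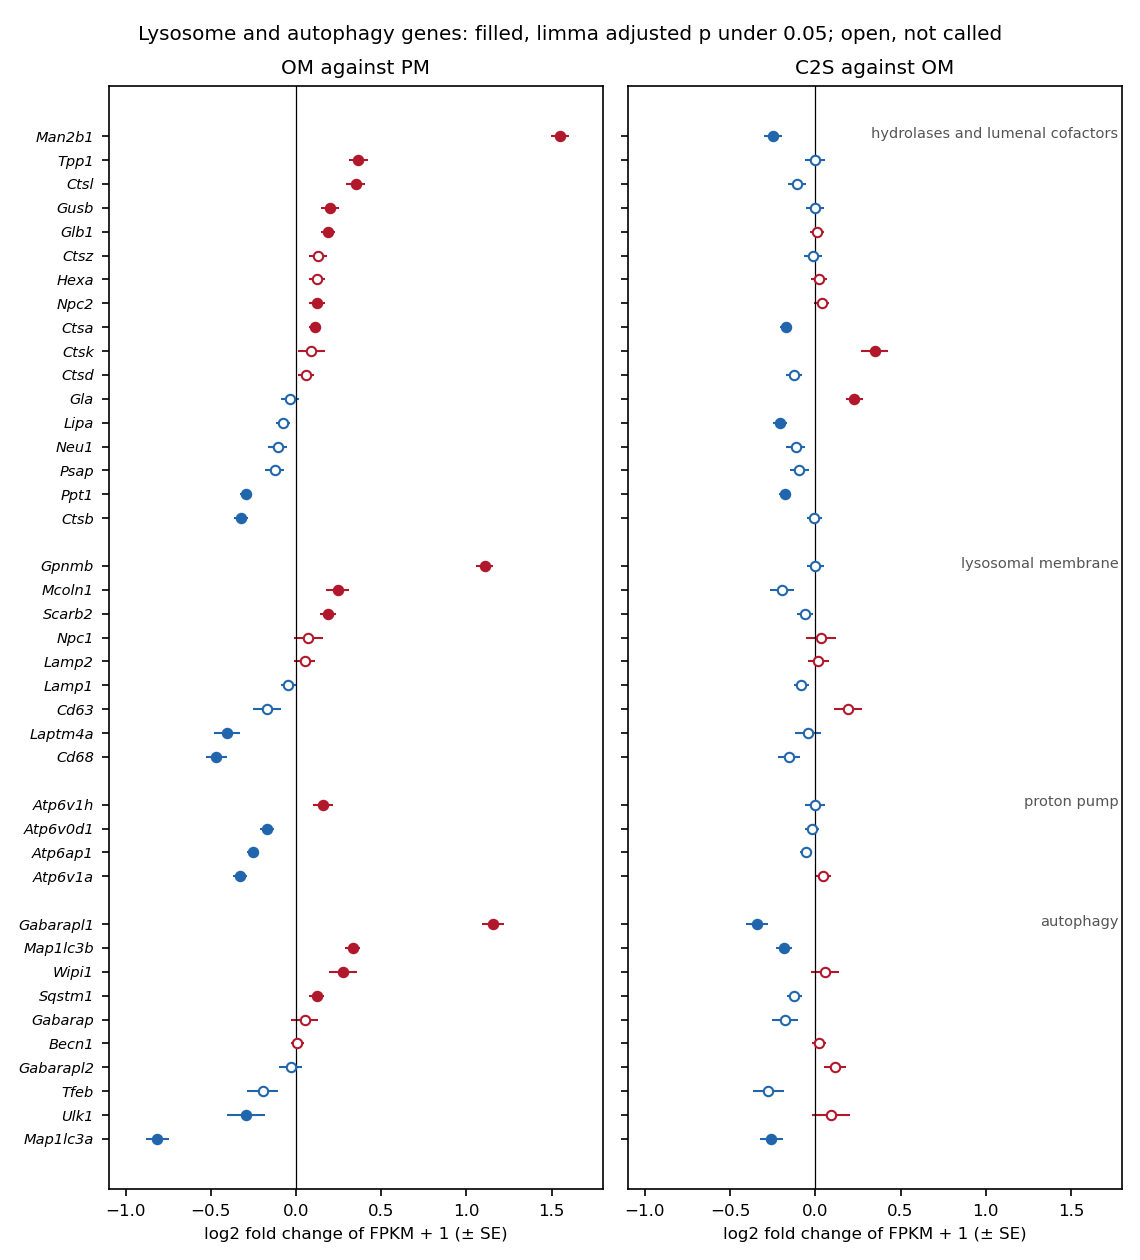
Log2 fold change of FPKM + 1 with its standard error for each of the 40 members (rows, grouped by class), in OM against PM (left) and C2S against OM (right), filled where limma's adjusted p is under 0.05. Man2b1, Gpnmb and Gabarapl1 stand apart on the right of the OM against PM panel and Map1lc3a on the left. On this scale no member changed by 1.5-fold in C2S against OM, whereas in plain FPKM Ctsk, a low gene, stood at 1.60 times its OM level. Under the scaling by summed FPKM without Rn7sk the OM against PM split of 15 higher and 9 lower turns to 6 and 16.

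Among the 17 hydrolases and lumenal cofactors, 7 rose, 2 fell and 8 were not called in OM against PM. The called share was 52.9%, beside 54.8% of all genes tested. Man2b1, the lysosomal alpha-mannosidase that trims glycoprotein glycans, showed the largest rise of the set. Man2b1 stood at 25.04, 24.2 and 23.2 FPKM in the PM libraries, 69.8, 78.1 and 70.1 in OM and 62.8, 60.8 and 59.4 in C2S. The PM libraries lay far below all others, and the C2S libraries lay between the PM and OM ranges without touching either. The log2 fold change of OM against PM, given here with its standard error, was 1.55 ± 0.053 (adjusted p = 3.17e-08) by limma, and that of C2S against PM was 1.30 ± 0.053 (adjusted p = 8.44e-08).

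Tpp1, a tripeptidyl peptidase, and Ctsl, a cysteine protease, rose by less. Tpp1 stood at 23.3, 21.05 and 20.1 FPKM in the PM libraries, 27.3, 28.5 and 28.1 in OM and 26.7, 28.9 and 28.2 in C2S. Ctsl stood at 59.7, 61.6 and 62.6 FPKM in the PM libraries, 76.8, 76.4 and 82.1 in OM and 77.3, 67.7 and 73.2 in C2S. For both genes every PM library was below every OM and C2S library, while the OM and C2S ranges overlapped. The log2 fold changes of OM against PM were 0.37 ± 0.057 (adjusted p = 0.000544) for Tpp1 and 0.35 ± 0.054 (adjusted p = 0.000536) for Ctsl. Gusb (beta-glucuronidase) and Glb1 (beta-galactosidase) rose by 0.20 ± 0.054 and 0.19 ± 0.042 (adjusted p = 0.0109 and 0.00403). Both of these calls ended when the summed FPKM without Rn7sk was set equal (adjusted p = 0.22 and 0.211).

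Ctsa, the carboxypeptidase that protects beta-galactosidase and neuraminidase in the lumen, rose slightly in OM. Ctsa stood at 83.4, 83.8 and 84.9 FPKM in the PM libraries, 89.4, 92.1 and 90.7 in OM and 81.3, 78.7 and 81.5 in C2S. The OM libraries were the highest and the C2S libraries the lowest, with no overlap between any of the 3 groups. On the log2 scale OM exceeded PM by 0.11 ± 0.034 (adjusted p = 0.0217). Leaving out PM replicate 1, PM replicate 2 or OM replicate 2 ended the Ctsa call (adjusted p = 0.0604, 0.0646 and 0.0561). So did median of ratios scaling, fitting only the groups compared and the scaling by summed FPKM without Rn7sk (adjusted p = 0.0589, 0.0597 and 0.794), the last with a log2 fold change of 0.015. The opposite-strand neighbour Pltp, at up to 30.6 FPKM, shares 495 exon bases with Ctsa. Npc2, a lumenal cholesterol carrier, was called at 0.12 ± 0.045 (adjusted p = 0.0446), and this call was lost without PM replicates 1 or 2, OM replicates 1 or 3 or C2S replicates 1 or 3 (adjusted p from 0.0563 to 0.141) and under the scaling by summed FPKM without Rn7sk (adjusted p = 0.551). It held under 5 of the 17 alternatives.

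Ctsb and Ppt1 were the hydrolases that fell. Ctsb is a cysteine protease, and Ppt1 removes palmitate from proteins. Ctsb stood at 282, 299 and 292 FPKM in the PM libraries, 228, 235 and 234 in OM and 236, 226 and 233 in C2S. The PM libraries were above all 6 others, and the OM and C2S ranges overlapped. Ppt1 stood at 29.7, 29.6 and 29.4 FPKM in the PM libraries, 23.7, 24.3 and 23.7 in OM and 21.6, 20.9 and 20.5 in C2S. Here the groups formed 3 steps with no overlap, PM highest and C2S lowest. The log2 fold changes of OM against PM were -0.32 ± 0.042 (adjusted p = 0.000187) for Ctsb and -0.29 ± 0.035 (adjusted p = 0.000101) for Ppt1. Ctsb shares 774 exon bases with Fdft1, which reached 17.2 FPKM, and Ppt1 shares 129 with Cap1, which reached 127 FPKM, both on the opposite strand, so part of their reads is uncertain.

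The 8 hydrolases not called in OM against PM ran from Ctsk, the least abundant member, to Psap, the most abundant by its mean in each group. Psap, the precursor of the saposins that help hydrolases reach lipids, stood at 533 ± 15.04 FPKM in PM, against 489 ± 22.9 in OM and 458 ± 18.4 in C2S. Ctsd, the main aspartic protease of lysosomes, stood at 202 ± 9.74 FPKM in PM, against 210.5 ± 1.19 in OM and 193 ± 7.45 in C2S. Ctsz, a carboxypeptidase, had 114 ± 5.92 FPKM in PM, against 125 ± 6.25 in OM and 123 ± 3.14 in C2S. Their 95% intervals of the OM against PM log2 fold change were -0.25 to 0.0020, -0.049 to 0.17 and 0.010 to 0.25. Hexa, the alpha subunit of beta-hexosaminidase, stood at 82.7 ± 3.11 FPKM in PM, against 90.2 ± 4.15 in OM and 91.5 ± 2.77 in C2S. Neu1, the neuraminidase, stood at 14.4 ± 0.858 FPKM in PM, against 13.3 ± 0.531 in OM and 12.2 ± 0.555 in C2S. Without a call these levels are not shown to be equal, and Ctsz was called without PM replicate 3 (adjusted p = 0.0309), as was Hexa without PM replicate 3 or OM replicate 1 (adjusted p = 0.0353 and 0.0495). Under the scaling by summed FPKM without Rn7sk, Psap and Neu1 were called lower in OM than in PM, at -0.22 and -0.20 on the log2 scale (adjusted p = 0.0128 and 0.0111). Gla, Lipa and Ctsk are described with C2S against OM, in which they were called.

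Of the 9 membrane genes, 3 rose, 2 fell and 4 were not called in OM against PM. The called share was 55.6%, beside 54.8% of all genes tested. Gpnmb, a transmembrane glycoprotein of late endosomes and lysosomes that is also called osteoactivin in bone, had the largest rise. Gpnmb stood at 97.3, 95.4 and 94.3 FPKM in the PM libraries, 197, 211 and 215 in OM and 219, 198 and 206 in C2S. The 3 PM libraries lay close together and far below the others, and the OM and C2S libraries overlapped. The log2 fold change was 1.11 ± 0.051 (adjusted p = 2.09e-07) in OM against PM and -0.0007 ± 0.051 (adjusted p = 0.994) in C2S against OM, the latter with a 95% interval of -0.12 to 0.11.

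Mcoln1, a calcium channel of the lysosomal membrane, rose in OM. Mcoln1 stood at 13.5, 14.03 and 12.4 FPKM in the PM libraries, 15.2, 17.5 and 15.2 in OM and 14.6, 13.5 and 13.3 in C2S. The OM libraries were the highest, above all PM and all C2S libraries, while PM and C2S overlapped. Against PM the log2 rise was 0.25 ± 0.069 (adjusted p = 0.0136). Scarb2, a glycoprotein of the lysosomal membrane also known as LIMP-2, had 18.9 ± 0.913 FPKM in PM, against 21.6 ± 0.537 in OM and 20.7 ± 0.827 in C2S, a log2 fold change of 0.19 ± 0.048 (adjusted p = 0.00884) in OM against PM. Both calls ended under the scaling by summed FPKM without Rn7sk (adjusted p = 0.168 and 0.244).

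Cd68 and Laptm4a fell. Cd68, a heavily glycosylated lysosomal protein best known from macrophages, was a low-abundance gene here. Cd68 stood at 3.41, 3.15 and 3.02 FPKM in the PM libraries, 2.04, 2.03 and 2.03 in OM and 1.72, 1.59 and 1.87 in C2S. The PM libraries were the highest, and the 3 OM libraries were nearly equal and all above the C2S libraries. Its change from PM to OM was -0.47 ± 0.064 (adjusted p = 0.000264) on the log2 scale. Laptm4a, a small lysosomal transmembrane protein, was among the most abundant members. Laptm4a stood at 403, 419.8 and 482 FPKM in the PM libraries, 329, 306 and 347 in OM and 324, 304 and 325 in C2S. Every PM library was above every OM and C2S library, and the log2 fold change of OM against PM was -0.41 ± 0.076 (adjusted p = 0.00168).

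Gpnmb and Cd68 are also expressed by macrophages and osteoclasts, so the markers of those cells are given beside them. The summed level of the 9 macrophage markers was 14.3 to 17.003 FPKM in PM, against 24.7 to 30.3 in OM and 35.8 to 42.3 in C2S. Most of that sum was Cd14, and the defining markers Ptprc, Adgre1, Itgam and C1qa did not exceed 0.0144 FPKM in any library. Lyz2 ranged from 3.42 to 4.80 FPKM in PM and from 0.255 to 0.683 in the other 6 libraries. The 7 osteoclast markers summed to 2.03 to 2.3995 FPKM in PM, against 0.451 to 0.646 in OM and 0.73 to 0.924 in C2S, with Mmp9 the highest and Calcr at or near 0. The part of these cells in the levels of Gpnmb and Cd68 was not tested.

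Among the membrane genes not called, the structural glycoproteins Lamp1 and Lamp2 were abundant. Lamp1 stood at 461 ± 6.49 FPKM in PM, against 446 ± 10.9 in OM and 421 ± 9.47 in C2S, and Lamp2 at 233 ± 18.6 FPKM in PM, against 242 ± 11.97 in OM and 244 ± 5.61 in C2S. Their 95% intervals of the OM against PM log2 fold change were -0.15 to 0.054 and -0.093 to 0.19, and Lamp1 was called lower under the scaling by summed FPKM without Rn7sk (adjusted p = 0.0352). Npc1, the membrane partner of Npc2 in cholesterol export, stood at 8.50 ± 0.843 FPKM in PM, against 9.0002 ± 1.07 in OM and 9.20 ± 0.307 in C2S. Cd63, a tetraspanin of late endosomes and exosomes with a near-identical transcribed copy (Cd63-ps), stood at 147 ± 12.6 FPKM in PM, against 130.2 ± 14.1 in OM and 149 ± 4.39 in C2S. Cd63 was called lower in OM without OM replicate 3 (adjusted p = 0.0169) and higher in C2S than in OM without the same library (adjusted p = 0.034). With a replicate block it was called in the same directions (adjusted p = 0.028 and 0.0402), and under the scaling by summed FPKM without Rn7sk it was called lower in OM than in PM (adjusted p = 0.00546).

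The 4 proton pump genes were all called in OM against PM, 3 lower and 1 higher. Of all genes tested 54.8% were called (27.1% higher and 27.7% lower), and 4 genes give a coarse share. Atp6v1a, the subunit that hydrolyses ATP, fell the most. Atp6v1a stood at 52.05, 51.8 and 55.6 FPKM in the PM libraries, 41.2, 41.2 and 43.8 in OM and 44.1, 42.97 and 43.5 in C2S. Atp6ap1 stood at 103, 103 and 101 FPKM in the PM libraries, 84.4, 89.1 and 83.6 in OM and 81.4, 81.97 and 83.9 in C2S. Atp6ap1 is an accessory subunit needed to assemble the pump, and for both genes the PM libraries were above all others while OM and C2S overlapped. The log2 fold changes of OM against PM were -0.33 ± 0.042 (adjusted p = 0.000161) and -0.25 ± 0.037 (adjusted p = 0.000421). Atp6v0d1, the d subunit of the membrane sector, fell by a smaller amount, from 66.6 ± 2.26 to 59.01 ± 1.69 FPKM (log2 fold change -0.17 ± 0.041 (adjusted p = 0.00662)). These 3 falls were called under all 17 alternatives. Atp6v1h, a regulatory subunit, went the other way, from 17.2 ± 0.907 to 19.4 ± 1.39 FPKM (0.16 ± 0.059 (adjusted p = 0.0469)), with PM and OM libraries that overlapped. Its call was lost without any 1 of the libraries other than PM replicate 3 and OM replicate 2 (adjusted p from 0.0607 to 0.146) and under the scaling by summed FPKM without Rn7sk (adjusted p = 0.25), and it held under 4 of the 17 alternatives. The summed level of the 4 genes was 239 ± 1.33 FPKM in PM, against 206 ± 0.552 in OM and 204 ± 1.81 in C2S.

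**Figure D2:**
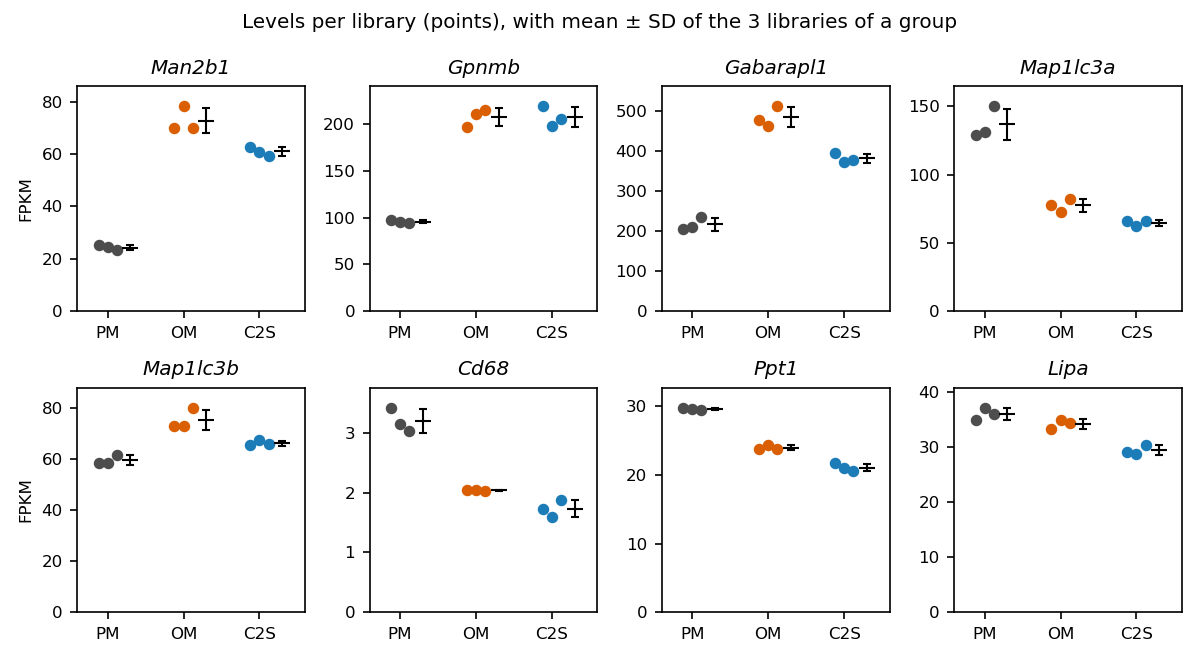
FPKM per library (points) with mean ± SD (bars, n = 3) for 8 members in the PM, OM and C2S groups, on linear axes from 0. Man2b1, Gpnmb and Gabarapl1 are lowest in the PM libraries, Map1lc3a, Cd68 and Ppt1 are highest in them, and Lipa is lowest in the C2S libraries.

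Of the 10 autophagy genes, 4 rose, 2 fell and 4 were not called in OM against PM. The called share was 60%, beside 54.8% of all genes tested. The largest changes lay within the LC3 and GABARAP family, the ubiquitin-like proteins that are joined to the lipid of the autophagosome membrane. Gabarapl1 stood at 204, 210.5 and 234 FPKM in the PM libraries, 478, 462 and 511 in OM and 394, 371 and 377 in C2S. Every OM library had more than any C2S library, and every C2S library more than any PM library. The log2 fold change was 1.16 ± 0.064 (adjusted p = 6.64e-07) in OM against PM. Gabarapl1 shares 570 exon bases with a gene on the opposite strand, 1700101I11Rik, which did not exceed 2.05 FPKM.

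Map1lc3a, which encodes LC3A, moved opposite to Gabarapl1 in OM. Map1lc3a stood at 129, 131 and 149.96 FPKM in the PM libraries, 77.7, 72.3 and 81.9 in OM and 65.6, 62.1 and 65.7 in C2S. The PM libraries were the highest and the C2S libraries the lowest, with no overlap between the groups. From PM to OM its log2 fold change was -0.81 ± 0.067 (adjusted p = 9.05e-06). Map1lc3b, which encodes LC3B, the form most used to count autophagosomes, rose. Map1lc3b stood at 58.7, 58.6 and 61.8 FPKM in the PM libraries, 73.2, 73.1 and 80.2 in OM and 65.5, 67.5 and 66.001 in C2S. The OM libraries were the highest and the PM libraries the lowest, again with no overlap. Its log2 fold change of OM against PM was 0.33 ± 0.046 (adjusted p = 0.000267).

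The other family members were not called in OM against PM under any of the 17 alternatives. Gabarap stood at 216 ± 23.5 FPKM in PM, against 223 ± 14.1 in OM and 197 ± 4.06 in C2S, and Gabarapl2 at 33.5 ± 1.66 FPKM in PM, against 32.8 ± 3.03 in OM and 35.6 ± 1.11 in C2S. The make-up of the family RNA therefore differed between media, and shares within the family do not depend on the scaling of a library. Gabarapl1 held 32.7% ± 0.507 of the summed FPKM of the 5 genes in PM, 54.2% ± 0.421 in OM and 51.2% ± 0.709 in C2S. Map1lc3a held 20.7% ± 0.147 in PM, 8.66% ± 0.101 in OM and 8.66% ± 0.158 in C2S. Gabarap, the second most abundant member in OM, held 32.6% ± 1.03, 24.99% ± 0.546 and 26.4% ± 0.542. The ratio of Map1lc3a to Map1lc3b was 2.29 ± 0.1205 in PM, 1.02 ± 0.036 in OM and 0.973 ± 0.0449 in C2S. The family sum was 662 ± 53.4 FPKM in PM, against 892 ± 49.3 in OM and 744 ± 14.1 in C2S. These shares, ratios and sums are descriptions with no test. They depend on the longest annotated transcript of each gene, 1112 bases for Map1lc3a and 4138 for Map1lc3b. In reads, Map1lc3a had 2314 to 4944 per library and Map1lc3b 7564 to 11718, so the order of these genes rests on the lengths.

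**Figure D3:**
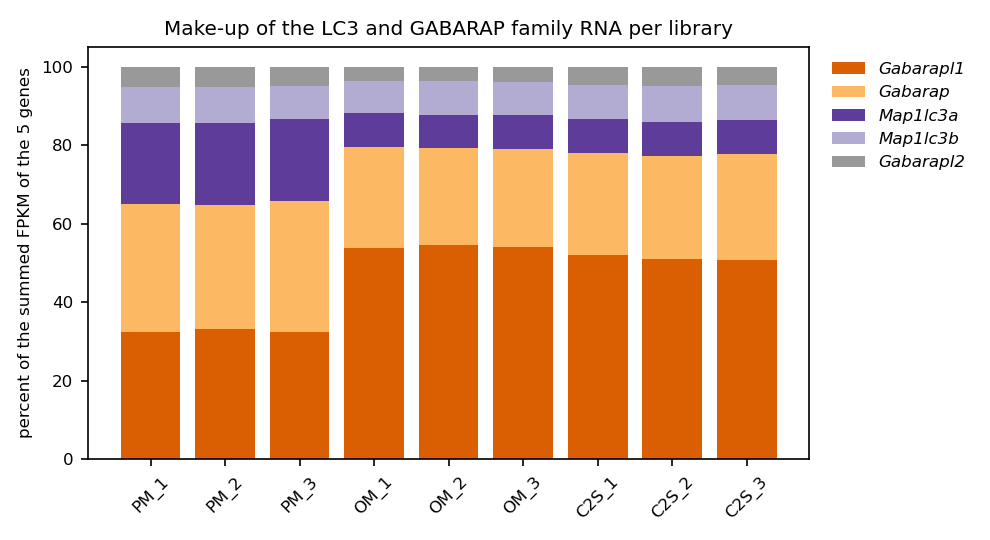
Share of each of the 5 LC3 and GABARAP genes in their summed FPKM (stacked bars, percent) for each of the 9 libraries. Gabarapl1 takes 32.3% to 33.3% of the family RNA in the PM libraries and 50.7% to 54.7% in the OM and C2S libraries, and Map1lc3a takes 20.5% to 20.8% and 8.51% to 8.83%.

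The remaining autophagy genes changed little. Wipi1 stood at 18.9, 17.01 and 15.9 FPKM in the PM libraries, 21.4, 22.9 and 19.03 in OM and 20.3, 23.6 and 21.96 in C2S. Wipi1, which binds the phosphoinositide of nascent autophagosomes, was lowest in PM, by 0.28 ± 0.084 (adjusted p = 0.0204) on the log2 scale against OM, and its call was lost without PM replicates 2 or 3 or OM replicates 1 or 2 (adjusted p = 0.0564, 0.0633, 0.0585 and 0.0664), without the filter on low values (adjusted p = 0.051) and under the scaling by summed FPKM without Rn7sk (adjusted p = 0.169). Ulk1 stood at 6.35, 5.25 and 5.10 FPKM in the PM libraries, 4.27, 4.85 and 3.93 in OM and 3.99, 5.46 and 4.73 in C2S. Ulk1, the kinase that starts autophagy, was higher in PM than in OM in every library, by a log2 fold change of -0.29 ± 0.11 (adjusted p = 0.0485). That call was lost without PM replicates 1 or 2, OM replicates 1 or 3 or C2S replicate 3 (adjusted p = 0.158, 0.0675, 0.108, 0.144 and 0.0682), and it held under 9 of the 17 alternatives. Sqstm1, the p62 receptor that carries ubiquitin-tagged cargo, had 224 ± 4.74 FPKM in PM, against 244 ± 9.53 in OM and 224 ± 3.71 in C2S (log2 fold change of OM against PM 0.12 ± 0.043 (adjusted p = 0.0389)). Leaving out any 1 of the 9 libraries except OM replicate 2 ended this call (adjusted p from 0.0562 to 0.123), as did the scaling by summed FPKM without Rn7sk (adjusted p = 0.576), and it held under 4 of the 17 alternatives. Becn1, a subunit of the phosphoinositide kinase complex of autophagy, stood at 22.1 ± 0.447 FPKM in PM, against 22.3 ± 0.949 in OM and 22.6 ± 0.0686 in C2S, with a 95% interval of the OM against PM log2 fold change of -0.081 to 0.099.

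Tfeb, the transcription factor named for this gene network, was a low-abundance gene at 3.24 ± 0.185 FPKM in PM, against 2.70 ± 0.266 in OM and 2.06 ± 0.326 in C2S. It was called in C2S against PM (-0.47 ± 0.091 (adjusted p = 0.00183)) and in neither of the other comparisons (-0.20 ± 0.091 (adjusted p = 0.0958) in OM against PM and -0.28 ± 0.091 (adjusted p = 0.0581) in C2S against OM), although it was called in C2S against OM without C2S replicate 1 (adjusted p = 0.0472) and lower in OM against PM under the scaling by summed FPKM without Rn7sk (-0.27, adjusted p = 0.0315). Its relatives Mitf and Tfe3, singled out after their values were seen, differed from it. Mitf stood at 9.91, 9.74 and 8.11 FPKM in the PM libraries, 18.04, 18.6 and 15.7 in OM and 16.8, 16.8 and 16.4 in C2S. All PM libraries were below all others, and the log2 fold change of OM against PM was 0.85 ± 0.080 (adjusted p = 2.42e-05). Tfe3 stood at 7.31 ± 0.538 FPKM in PM, against 7.15 ± 0.0507 in OM and 8.15 ± 0.3101 in C2S and was not called in any comparison.

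In C2S against OM, 2 members rose, 7 fell and 31 were not called, and no member changed by 1.5-fold on the tested scale. The called share of 22.5% stood beside 22.0% of all genes tested, of which 10.6% were higher and 11.5% lower. The median log2 fold change was -0.030 over the members and -0.0071 over all genes. The 7 that fell were Gabarapl1, Map1lc3a, Man2b1, Lipa, Map1lc3b, Ppt1 and Ctsa, and the 2 that rose were Gla and Ctsk, the latter having passed the filter only through the C2S libraries, where it was high. By class, 2 hydrolases rose and 4 fell, 3 autophagy genes fell, and none of the 9 membrane or 4 proton pump genes was called. Mcoln1 was called lower under median of ratios scaling and with the read total without Rn7sk (adjusted p = 0.0391 and 0.0467). Without C2S replicate 3, 39 members were tested and 4 were called, all of them lower, beside 10.7% of all genes.

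Gabarapl1 showed the largest fall of this comparison, -0.34 ± 0.064 (adjusted p = 0.00644), and kept its call under all 17 alternatives. Its sister genes Map1lc3a and Map1lc3b fell by 0.26 ± 0.067 and 0.18 ± 0.046 (adjusted p = 0.0255 and 0.0226). The Map1lc3a call was lost without any of the 3 C2S libraries or OM replicates 1 or 3 (adjusted p = 0.0592, 0.0877, 0.0679, 0.0689 and 0.0764). The Map1lc3b call was lost without any C2S library or OM replicate 3 (adjusted p = 0.073, 0.0532, 0.0806 and 0.0577). For Gabarapl1 and Map1lc3b, which rose in OM against PM, the C2S level lay between the PM and OM levels. For Map1lc3a, which fell in OM, C2S was lower still. The 2 comparisons share the OM libraries, so these values are given side by side only.

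Among the hydrolases, Lipa, the acid lipase that frees cholesterol and fatty acids, fell in C2S. Lipa stood at 34.98, 37.1 and 36.1 FPKM in the PM libraries, 33.2, 34.96 and 34.3 in OM and 29.2, 28.8 and 30.4 in C2S. The C2S libraries were below all others, and the OM libraries were just below the lowest PM library. The log2 fold change was -0.21 ± 0.040 (adjusted p = 0.00802) in C2S against OM and -0.075 ± 0.040 (adjusted p = 0.141) in OM against PM, the latter called under the scaling by summed FPKM without Rn7sk (adjusted p = 0.019). Ppt1 and Ctsa fell in C2S against OM by 0.18 ± 0.035 and 0.17 ± 0.034 (adjusted p = 0.00816 and 0.00867). Lipa, Ppt1 and Ctsa kept this call under all 17 alternatives. Man2b1 fell by 0.25 ± 0.053 (adjusted p = 0.0118), a call lost without C2S replicate 3 (adjusted p = 0.0543) and under the scaling by summed FPKM without Rn7sk (adjusted p = 0.0553).

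Gla and Ctsk were the members called higher in C2S than in OM. Gla stood at 20.3, 19.998 and 21.6 FPKM in the PM libraries, 21.2, 18.9 and 20.2 in OM and 23.2, 23.3 and 24.8 in C2S. The C2S libraries were above all others, and PM and OM overlapped. The log2 fold change of Gla, the alpha-galactosidase A of glycolipid breakdown, was 0.23 ± 0.052 (adjusted p = 0.0153), a call lost without C2S replicate 3 (adjusted p = 0.0678). Gla was called lower in OM than in PM under the scaling by summed FPKM without Rn7sk (adjusted p = 0.0436). Ctsk stood at 0.713, 0.724 and 0.805 FPKM in the PM libraries, 0.903, 0.853 and 0.824 in OM and 1.57, 1.26 and 1.29 in C2S. Ctsk, the collagen-cutting protease best known from osteoclasts, reached 1 FPKM only in the C2S libraries and so passed the filter through them, with 36 to 82 reads per library. A gene that enters a test only through the group where it is high had to differ, so its value is given from the fit with no filter on low values, where the log2 fold change was 0.35 ± 0.077 (adjusted p = 0.0362). The 7 osteoclast markers beside it summed to 0.451 to 0.646 FPKM in OM and 0.73 to 0.924 in C2S. Of these, Mmp9 averaged 0.154 and 0.325 FPKM and Atp6v0d2 0.0700 and 0.178, both with every C2S library above every OM library. Oscar was lower in C2S, at 0.211 and 0.147 FPKM. Acp5 averaged 0.0919 and 0.146 FPKM, Ocstamp 0.0128 and 0.0196 and Dcstamp 0.0184 and 0.0199. For Oscar, Acp5, Ocstamp and Dcstamp the OM and C2S libraries overlapped, and Calcr was at or near 0. The part of osteoclasts in the level of Ctsk was not tested.

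In C2S against PM, 15 members rose, 13 fell and 12 were not called, a called share of 70% beside 56.0% of all genes (27.6% higher and 28.4% lower). Ctsk is among the 15. With the summed FPKM without Rn7sk set equal, 6 rose and 16 fell, and all genes turned to 2686 higher and 4338 lower. The called share was then 55% of the members beside 53.8% of all genes. This comparison shares its libraries with the 2 others. By class, 9 hydrolases rose and 5 fell, 2 membrane genes rose and 3 fell, 1 proton pump gene rose and 3 fell, and 3 autophagy genes rose and 2 fell. Map1lc3a showed the largest fall at -1.07 ± 0.067 (adjusted p = 1.36e-06), and Gpnmb rose by 1.11 ± 0.051 (adjusted p = 1.91e-07). Ppt1, Lipa and Cd68 fell by 0.47 ± 0.035, 0.28 ± 0.040 and 0.62 ± 0.064 (adjusted p = 4.26e-06, 0.0003 and 4.02e-05). Neu1 and Psap, not called in the other comparisons except in OM against PM under that scaling, were lower in C2S than in PM (-0.22 ± 0.055 (adjusted p = 0.00721) and -0.22 ± 0.055 (adjusted p = 0.00837)). The 7 members named here kept these calls under all 17 alternatives.

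A further 141 genes of the same pathways, drawn up as 6 lists, were read from the same fit, and 136 of them passed the filter. The 5 that did not were Ctsc, Ctss, Laptm5, Rragd and Prkaa2, all below 1 FPKM in every library. In OM against PM, 40 rose and 34 fell, 54.4% of those tested beside 54.8% of all genes. With the summed FPKM without Rn7sk set equal 26 rose and 44 fell, beside 2551 and 4373 of all genes. In C2S against OM, 16 rose and 21 fell, 27.2% beside 22.0% of all genes. This count of 37 was 10, 16 and 20 when C2S replicates 3, 2 and 1 were left out in turn, beside 10.7%, 13.2% and 14.3% of all genes. The count was 23 and 22 without OM replicates 1 and 3, beside 15.1% and 16.1% of all genes.

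Among the upstream regulators, which act through mTORC1, AMPK and FOXO factors, 12 of 30 tested genes rose and 9 fell in OM against PM. The called share was 70%, beside 54.8% of all genes tested. Ddit4 (REDD1), an inhibitor of mTORC1 known to respond to glucocorticoids, rose the most. Ddit4 stood at 9.56, 12.5 and 11.9 FPKM in the PM libraries, 57.5, 63.5 and 82.2 in OM and 52.7, 50.8 and 57.1 in C2S. Sesn1 stood at 10.2, 10.0 and 10.996 FPKM in the PM libraries, 39.4, 36.9 and 38.7 in OM and 26.8, 27.3 and 25.02 in C2S. Sesn1 encodes a leucine-sensing sestrin that restrains mTORC1, and for both genes all PM libraries were below all others. The log2 fold changes of OM against PM were 2.47 ± 0.13 (adjusted p = 5.45e-07) for Ddit4, 1.79 ± 0.050 (adjusted p = 9.23e-09) for Sesn1 and 1.57 ± 0.061 (adjusted p = 7.25e-08) for Foxo3, a forkhead factor known to drive autophagy genes. The other sestrins went the other way, Sesn3 by -0.94 ± 0.085 (adjusted p = 1.85e-05) and Sesn2 by -0.45 ± 0.083 (adjusted p = 0.00158). Rraga, a small GTPase that brings mTORC1 to the lysosome, fell by 0.84 ± 0.078 (adjusted p = 2.06e-05).

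Of 24 other membrane and sorting genes tested, 5 rose and 9 fell in OM against PM (58.3% called, beside 54.8% of all genes tested). Igf2r, the mannose 6-phosphate receptor that carries new hydrolases to lysosomes, fell the most of these 24. Igf2r stood at 133, 132 and 117 FPKM in the PM libraries, 25.9, 31.9 and 26.9 in OM and 29.1, 29.3 and 29.9 in C2S. The PM libraries were several times higher than all others, and OM and C2S overlapped. Its log2 fold change of OM against PM was -2.14 ± 0.079 (adjusted p = 5.23e-08). Sort1, a sortilin that also carries hydrolases, stood at 3.04 ± 0.237 FPKM in PM, against 0.616 ± 0.0618 in OM and 0.462 ± 0.0643 in C2S. It reached 1 FPKM only in the PM libraries and so passed the filter through them, and in the fit with no such filter its log2 fold change of OM against PM was -1.32 ± 0.079 (adjusted p = 1.18e-05). M6pr, the other mannose 6-phosphate receptor, was singled out to stand beside Igf2r and is not among the 3 lowest of its list. M6pr, which has a processed copy (M6pr-ps), fell by 0.37 ± 0.049 (adjusted p = 0.000193), with its alternative fits not given. The lipid transporter Abca2 fell by 0.60 ± 0.079. Cln3, Tmem192 and Vps11 rose by 0.52 ± 0.067, 0.34 ± 0.063 and 0.32 ± 0.041 (adjusted p = 0.000171, 0.00172 and 0.000161).

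Of 30 other hydrolases tested, 8 rose and 6 fell in OM against PM (46.7% called, beside 54.8% of all genes tested). The proteases Ctso and Lgmn (legumain) rose by 0.62 ± 0.066 and 0.51 ± 0.048. Ctsh and Ctsf, also proteases, fell by 1.31 ± 0.097 and 0.69 ± 0.071, and the ganglioside activator Gm2a by 0.28 ± 0.036. Among 14 other pump subunits, 2 rose and 3 fell (35.7% called). The called changes ran from 0.43 ± 0.072 (adjusted p = 0.000813) for Atp6v0e2 to -0.51 ± 0.039 (adjusted p = 5.54e-06) for Atp6v1b2, the partner of Atp6v1a in the catalytic ring. Among 28 autophagosome formation genes, 8 rose and 4 fell (42.9% called). Wdr45, the conjugating enzyme Atg7 and Zfyve1 rose by 0.56 ± 0.077, 0.53 ± 0.041 and 0.43 ± 0.040, whereas Rb1cc1 (FIP200), the scaffold of the ULK complex, fell by 0.73 ± 0.044 (adjusted p = 1.16e-06). Of 10 autophagy receptors, 5 rose and 3 fell (80% called, a coarse share of few genes). The rises were led by the endoplasmic reticulum receptor Retreg1 (0.98 ± 0.047 (adjusted p = 2.50e-07)), the mitochondrial receptor Bnip3 (0.72 ± 0.052 (adjusted p = 4.13e-06)) and the ferritin receptor Ncoa4 (0.57 ± 0.046 (adjusted p = 8.74e-06)), and Bnip3l, Tollip and Optn fell by 0.29 ± 0.046, 0.29 ± 0.044 and 0.22 ± 0.054.

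**Figure D4:**
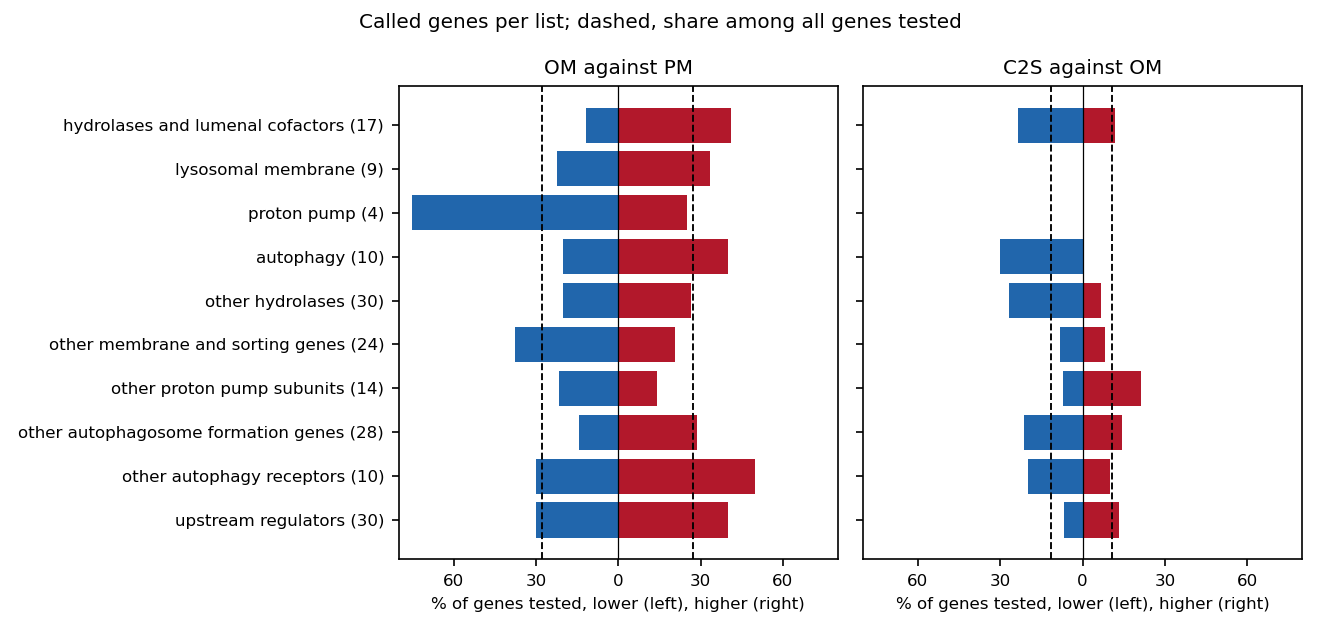
Percent of tested genes called higher (right, red) and lower (left, blue) by limma in each list (number of genes tested in brackets), in OM against PM and C2S against OM, with dashed lines at the share among all 13049 genes (27.1% and 27.7%, then 10.6% and 11.5%). In OM against PM the 15 higher and 9 lower members turn to 6 and 16 under the scaling by summed FPKM without Rn7sk, and all genes to 2551 and 4373. Lists of 4 to 30 genes give coarse shares.

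In C2S against OM, 9 of the 27 named genes of these lists kept their call under all 17 alternatives. The firm rises were those of Hgsnat, a heparan sulphate acetyltransferase (0.32 ± 0.045 (adjusted p = 0.00207)), Atp6v0a2 (0.25 ± 0.049 (adjusted p = 0.00833)), Atg12, a ubiquitin-like protein of the LC3 conjugation machinery (0.27 ± 0.036 (adjusted p = 0.0016)), and Laptm4b (0.19 ± 0.037 (adjusted p = 0.00768)). The firm falls were those of Sesn1 (-0.52 ± 0.050 (adjusted p = 0.000376)), Bnip3 (-0.34 ± 0.052 (adjusted p = 0.00289)), the lipid kinase Pik3c3 (-0.29 ± 0.060 (adjusted p = 0.0103)), Gm2a (-0.24 ± 0.036 (adjusted p = 0.00249)) and the sphingomyelinase Smpd1 (-0.20 ± 0.042 (adjusted p = 0.01)). Sesn1 and Bnip3, which rose in OM against PM, had C2S levels between the other groups, at 26.4 ± 1.22 and 58.6 ± 3.01 FPKM. The other 18 named genes lost their call without C2S replicate 3 (adjusted p from 0.0540 to 0.151). Among them were Atg14 and Pik3r4, partners of Pik3c3, at -0.24 ± 0.051 and -0.22 ± 0.059, Ctsh at 0.33 ± 0.097, Rptor of mTORC1 at 0.32 ± 0.086 and Atp6v0e2 at -0.33 ± 0.072. Under the scaling by summed FPKM without Rn7sk, Pik3r4 and Rptor also lost it (adjusted p = 0.094 and 0.0673). So did Cd164, Fnip2, Nprl2, Tmem175, Tollip, Vps11 and Wdr45b (adjusted p from 0.0572 to 0.159).

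Circular RNAs (circRNAs), closed loops made by back-splicing of exons, are a second readout of the same genes. The libraries held 13691 to 16123 circRNA reads in PM, against 19123 to 20769 in OM and 16936 to 17934 in C2S, so single circRNAs rest on few reads, and an unlisted entry can stand for 0 or 1 read. Of the 6614 circRNAs, 26 came from 10 of the members, and none was listed for the other 30. Atp6v1h had 8 of them, Glb1 and Lamp2 4 each, Mcoln1 3, Lamp1 2, and Atp6v0d1, Becn1, Ctsk, Gabarapl1 and Gusb 1 each. Of the 26, 10 were listed in a single library. Listed in at least 3 libraries, and so tested among 2898 circRNAs by limma on log2(RPM + 111.7), were 12. None of the 12 was called in any comparison, beside 1.55% of all circRNAs called in OM against PM, 0% in C2S against OM and 1.66% in C2S against PM. At an unadjusted p under 0.05 there were 0, 2 and 1 of the 12 in these comparisons, beside 12.6%, 5.21% and 12% of all circRNAs tested.

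The circRNAs of Lamp2 had the most reads. The most widely listed, circ_1861 (chrX:38424267-38442140, minus strand, mm10), was listed in all 9 libraries with 12, 7 and 9 reads in PM, 24, 20 and 12 in OM and 6, 10 and 11 in C2S. Scaled to the circRNA total of each library, these were 876, 479.7 and 558 RPM in PM, 1156, 1046 and 611 in OM and 335, 558 and 649.5 in C2S, and the 3 groups overlapped. Its log2 fold change of C2S against OM was -0.74 ± 0.31 (adjusted p = 0.87 by limma). The second, circ_6302 (chrX:38430918-38442140), shares its upstream end with circ_1861 and was listed with 2, 4 and 5 reads in PM, 3, 5 and 8 in OM and in none of the C2S libraries. Its log2 fold change was -1.72 ± 0.47 in C2S against OM (adjusted p = 0.504 by limma) and -1.64 ± 0.47 in C2S against PM (adjusted p = 0.113), so neither passed the correction. With every C2S library unlisted, the size of this fitted change depends on the pseudocount. All Lamp2 circRNAs together had 18, 14 and 14 reads in PM, 27, 25 and 24 in OM and 6, 12 and 11 in C2S. As RPM they summed to 1315, 959 and 868 in PM, 1300.01, 1307 and 1223 in OM and 335, 669 and 649.5 in C2S, so that the C2S libraries were below all others and PM and OM overlapped. The linear RNA of Lamp2 was not called in any comparison. The 8 circRNAs of Atp6v1h summed to 3, 8 and 6 reads in PM, 11, 11 and 12 in OM and 12, 14 and 12 in C2S. Their RPM were 219, 548 and 372 in PM, 529.6, 575 and 611 in OM and 670.2, 781 and 709 in C2S, with PM and OM overlapping and the C2S libraries the highest. These sums are descriptions with no test.

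**Figure D5:**
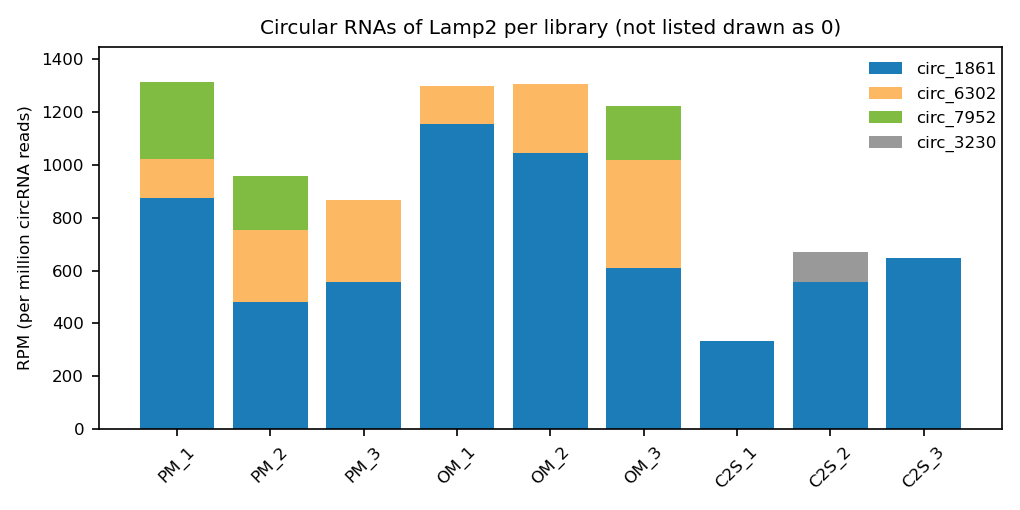
Back-splice junction reads of the 4 Lamp2 circRNAs as RPM, scaled to the circRNA total of each library (stacked bars), in each of the 9 libraries, with unlisted entries drawn as 0. The sums are 868 to 1315 RPM in PM, 1223 to 1307 in OM and 335 to 669 in C2S, and circ_6302 is listed in all PM and OM libraries and in no C2S library.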

How the data were processed

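Each library came with a table of linear genes and a table of circRNAs. Per the submitters' processing notes, the tools were STAR, RSEM and HTSeq and the build was mm10, with no roles or versions. The sources used here do not give how the counting treated strand. Overlapping genes (14 of the 40 members share at least 50 exon bases with another gene) cannot be told apart. The authors deposited linear values that were read as FPKM. Value times the length of a gene's longest GENCODE M21 transcript fell on whole reads, within 0.1 reads, for 98.3% to 98.6% of the low values. The authors deposited circRNA values that were read as RPM, back-splice reads scaled to a fixed circRNA total. The smallest was 2 reads, and unlisted entries were set to 0.

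In R 4.3.3, limma 3.58.1 with a mean trend was fitted to log2(FPKM + 1) or log2(RPM + 111.7) of all 9 libraries, with the group as the only factor. Adjusted p-values are Benjamini-Hochberg values over all genes or circRNAs tested in a comparison, called under 0.05, and ± beside a log2 fold change gives the standard error. Fold changes on these scales understate the change of low genes. The script was tested on simulated data. The members and lists were chosen with earlier results of these data known. Values in every library are given for members called in OM against PM or C2S against OM with one of the 8 highest or 8 lowest changes or a log2 change of at least 0.5, and each pathway list is represented by its called genes with the 3 highest and 3 lowest changes. Mitf, Tfe3 and M6pr are named outside this rule. The 17 alternatives were another pseudocount, no filter on low values, 3 other scalings (the read total without Rn7sk being chosen after seeing the data), each library left out in turn, fitting only the groups compared, a replicate block, and no mean trend. Promoter sequences are from RefSeq.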

Additional observations from a re-analysis of the deposited data

How the results depend on the processing

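Of the members called, 14 of 24 in OM against PM, 4 of 9 in C2S against OM and 17 of 28 in C2S against PM kept their call under all 17 alternatives, and no single gene's call reversed. Leaving out 1 library at a time gave 18 to 24, 4 to 10 and 22 to 27 members called in these comparisons. Of all genes, 47.5% to 54.3%, 10.7% to 25.1% and 48.4% to 57.3% were then called. The other pathway genes called in C2S against OM numbered 37, and 24 without the filter on low values, 22 with the summed FPKM without Rn7sk set equal, and 10 to 44 with 1 library left out. The shares of all genes called in these fits were 22.0%, 6.68%, 15.5% and 10.7% to 25.1%. Under the scaling by summed FPKM without Rn7sk the median log2 fold change of the members was -0.041 in OM against PM and -0.043 in C2S against PM, beside -0.080 and -0.077 over all genes, in place of 0.055 and 0.041. The CLEAR core stood in 5 and the E-box in 8 members when only the 250 bases before the start were read. Deviations from the group means correlated at -0.024, 0.40 and 0.37 between same-numbered OM and PM libraries, against -0.47 to 0.19 between differently numbered ones. Between C2S and OM these were 0.084, 0.25 and 0.088, against -0.16 to 0.084. Between C2S and PM they were -0.092, 0.049 and 0.10, against -0.17 to 0.14. Whether the numbers pair the samples is not settled by these values. A fit with the replicate block called 24, 10 and 26 members, beside 56.5%, 22.7% and 57.6% of all genes. Genes with few reads, such as Ctsk, and the circRNAs are limited by depth, and intervals cover the spread between these libraries only.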
